A study of Mus musculus with 6 samples.

Results

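The genes described here are 8 that miR-7 is known to target in tumour cells: Egfr, Parp1, Klf4, Pak1, Psme3, Setdb1, Rela and Ptk2. They were taken as all probe sets of the deposited table that carry 1 of these symbols and no other. This gave 20 of 45101 probe sets, for 6 of the 8 genes: 7 for Egfr, 4 for Parp1, 3 each for Psme3 and Setdb1, 2 for Klf4 and 1 for Rela. Pak1 and Ptk2 had none under this rule and were not analysed here. Of the 20, 13 reached a mean of 4 (log2) over the MIN6 arrays, and the same number did so in islets. The other 7 stayed below 3.4 on every array, where the lowest value of the table is 2.17, and 4 of them sat at it on all 6 arrays.

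RNA was measured on Affymetrix mouse arrays in 4 samples of MIN6, a mouse beta-cell line, and in 2 samples of pancreatic islets. The MIN6 cells had been infected for 48 h, at a multiplicity of infection of 250, with an adenovirus. It carried GFP, a fluorescent control protein, on 1 array (AdGFP), miR-7a2 on 2 arrays (AdmiR7a) and miR-7b on 1 array (AdmiR7b), and the medium held 2% serum and 4.5 g/l glucose. All 4 MIN6 samples thus carried an adenovirus, and no uninfected cells were used here. The islets came from C57BL/6 mice in which Lox/Cre had removed miR-7a2 from beta cells (KO) or from wild-type mice (WT), with 1 array for each. The promoter that drives Cre, whether the wild-type mice carried any of the alleles, the age of the mice and the number of animals per islet sample are not given in the sources used here. In whole islets only the beta cells lose miR-7a2, so other cells of the sample keep it. Levels of miR-7 itself were not analysed here, so the gain and the loss rest on the labels.

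A microRNA guides the silencing complex to messenger RNAs that pair with its seed, mostly in the 3' untranslated region, and the paired messages are translated less and often degraded. miR-7 is abundant in endocrine and neural cells and low in many tumours, where its targets include growth factor receptors and their signalling proteins. Egfr encodes the epidermal growth factor receptor, Pak1 a kinase downstream of RAC and CDC42, and Ptk2 focal adhesion kinase. Parp1 encodes a DNA repair enzyme that makes poly(ADP-ribose), Psme3 the nuclear proteasome activator REG gamma, Setdb1 a histone H3 lysine 9 methyltransferase, Rela the p65 subunit of NF-kappaB and Klf4 a zinc finger transcription factor.

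The mature sequences of the microRNAs carried by the vectors are shown because their seed is what both would use on these genes. They are from RefSeq (GRCm38.p6), written 5′ to 3′, with bases 2 to 8, the seed, in capitals.
miR-7a-5p: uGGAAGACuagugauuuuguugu
miR-7b-5p: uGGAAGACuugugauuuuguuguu
The seed is the same, and its complement in a message reads GUCUUCC. Counted from the 5′ end of miR-7a-5p, the 2 differ by A10U and by 1 extra base at the 3′ end of miR-7b-5p, with 22 of 23 shared positions identical. miR-7a-5p is encoded with an identical mature sequence by 2 loci, by Mir7-2 at chr7:78888295-78888317 (plus strand), the locus deleted in the KO, and by Mir7-1 at chr13:58392841-58392863 (minus strand). miR-7b-5p comes from Mir7b at chr17:56243017-56243040 (plus strand). Untranslated regions of the 8 genes were not analysed here, so seed matches were not counted.

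Values are log2 intensities, to be compared for 1 probe set between arrays of the same system and not between probe sets. Whether all arrays were normalized together is not given, so orders across MIN6 and islets are only a description. Between 30.0% and 31.3% of probe sets sat at the lowest value on each array. The beta-cell markers Ins2 (15.7 to 15.9) and Iapp (16.1 to 16.2) stood near the top of the scale on all 6 arrays, whereas Slc2a2, the glucose transporter gene, was below 4 on all 4 MIN6 arrays and at 14.5 in KO and 14.1 in WT islets. Acinar markers lay below 4 on every array (4 of 4 measured). All 5 immune markers were below 4 in MIN6 and above it in both islet samples. The actin control probe set at the 3' end read 1.43 to 1.48 (log2) above the one at the 5' end in MIN6, but 2.65 in KO and 2.77 in WT islets. The hybridisation control BioB read 8.65 to 8.89 in MIN6, 4.35 in KO and 4.18 in WT, but the others differed far less. BioC read 9.90 to 10.22 in MIN6, 9.84 in KO and 9.96 in WT. BioD read 12.28 to 12.54, 11.88 and 12.01, and Cre 14.97 to 15.12, 14.92 and 14.98. The part of the actin and hybridisation controls in differences between the systems was not tested. In these bulk samples, fewer cells of a type and less RNA per cell cannot be told apart.

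With the miR-7 vectors, Parp1 and Rela were lower than with AdGFP, Psme3 dropped towards the background on 1 of its probe sets and not on the other, Setdb1 lay just outside the threshold, and Egfr and Klf4 did not pass it. The 3 arrays with either vector were pooled against the 1 AdGFP array in limma, with 1 probe set per gene (the one with the highest mean), and "fell" or "rose" refers to a two-sided p under 0.05 after Benjamini-Hochberg adjustment over the 10369 genes tested. By this test 2 of the 6 measured genes fell and 0 rose, where 11.9% of all genes fell and 14.3% rose. At an unadjusted p under 0.05 it was 3 and 0. The share of all genes at that level was not counted in this fit, so these counts have no background. In the limma fit on AdmiR7a alone, 3811 of the 10369 genes had an unadjusted p under 0.05. In the same fit over 20234 probe sets, 4 of the 13 fell and 0 rose, against 8.37% and 7.85% of all probe sets. One of the 4, Psme3 1418078_at, passed the filter only through its AdGFP value. Of the 12 that stayed above 4 on all MIN6 arrays 3 fell. The median difference was -0.51 (log2) over the 6 genes and 0.06 over all genes tested. All 3 miR-7 arrays lay below AdGFP for 4 of the 6 genes and above it for 1, against 32.9% and 46.5% of all genes. Among the 13 probe sets it was 10 and 1, against 35.1% and 41.4%, with 1418078_at among the 10. Several of the 13 read the same gene, so they are not separate cases. The members were chosen with earlier results of these data known, so such counts, here and in islets, do not stand as separate evidence. The AdGFP array has no replicate, so its spread was taken from the miR-7 arrays, and without any 1 of the 3 miR-7 arrays 0 genes of the whole table passed. With the filter on low values removed, 0 of the 6 genes passed as well.

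Markers of beta cells also differed between these arrays, and their part in the results was not tested. Of 7 markers 6 were lower with the vectors, from -1.32 (log2) for Slc2a2, below 4 throughout, to 0.06 for Ins2. Pdx1, a beta-cell transcription factor gene, read 13.2 with AdGFP and 12.1 to 12.3 with the vectors. Ucn3 differed by -1.15, Nkx6-1 by -0.76 and Slc30a8 by -0.73. The summed level of the 7 markers was 17.0 to 17.2 (log2) over the 4 MIN6 arrays, but Ins2 and Iapp made up 87.0% to 93.4% of it, so it says little about the others.

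**Figure D1:**
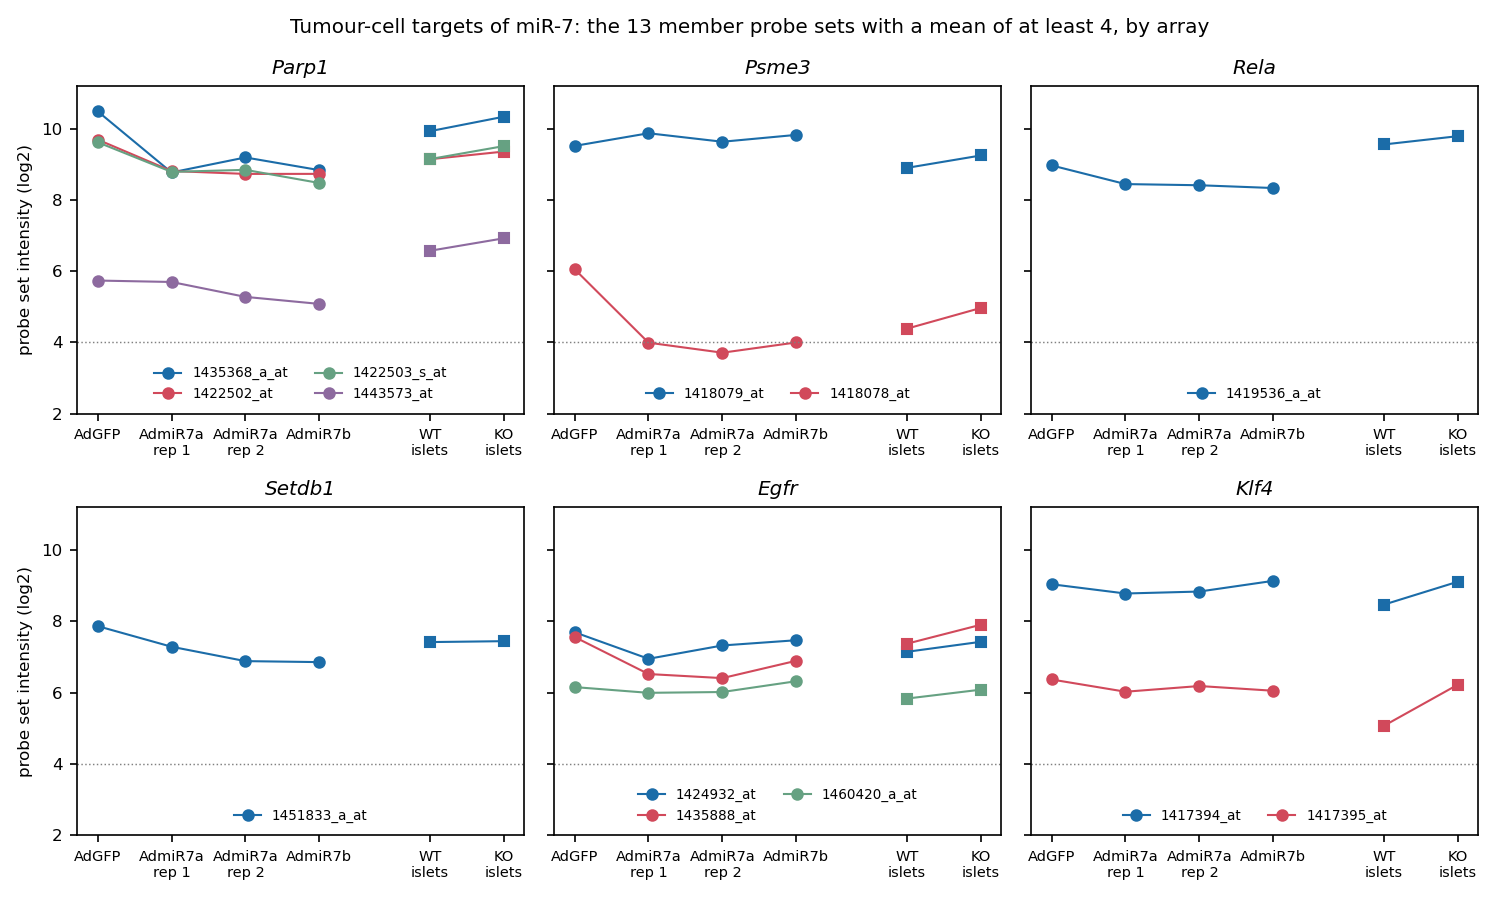
Log2 intensity (vertical axes) of the 13 member probe sets with a mean of at least 4 on each of the 6 arrays (horizontal axes), 1 panel per gene and 1 colour per probe set; circles are MIN6 arrays, squares islets, lines only join the values of a probe set, and the dotted line marks 4. The 3 bright Parp1 probe sets drop from above 9.6 with AdGFP to below 9.2 with the vectors, Psme3 1418078_at drops from 6.05 to 4.0 or less while 1418079_at does not, and the KO square lies above the WT square in every probe set, by only 0.03 in Setdb1.

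Parp1 had the largest drop at the gene level. Its brightest probe set, 1435368_a_at, read 10.49 with AdGFP, 8.77 and 9.19 with AdmiR7a and 8.84 with AdmiR7b. All 3 miR-7 arrays lay more than 1 below AdGFP, and the AdmiR7b value fell between the AdmiR7a values. Parp1 fell by 1.56 ± 0.20 (log2, SE; 95% interval -2.10 to -1.01; adjusted p = 0.0179), a 2.94-fold drop that only 69 of 10369 genes exceeded in size downwards. Without 1 miR-7 array in turn the difference was -1.69 to -1.48, with an adjusted p of 0.0708 to 0.0795, and with no filter the adjusted p was 0.111. Averaging the 4 probe sets gave -0.95 (adjusted p = 0.0145).

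The other Parp1 probe sets gave smaller differences. Probe set 1422502_at read 9.70 with AdGFP, 8.81 and 8.73 with AdmiR7a and 8.73 with AdmiR7b, and fell by 0.94 ± 0.08 (adjusted p = 0.0264 over all probe sets). Probe set 1422503_s_at, whose name marks probes that can match more than 1 transcript, read 9.62, then 8.79, 8.84 and 8.48, a difference of -0.92 ± 0.18 (adjusted p = 0.0542). The dim probe set 1443573_at read 5.74, then 5.70, 5.28 and 5.08, a difference of -0.39 ± 0.28 (adjusted p = 0.390). All 4 probe sets of Parp1 had the 3 miR-7 arrays below AdGFP, the order just counted. Their size differed, from a 1.31-fold to a 2.94-fold drop.

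Rela, which has 1 probe set, moved by less but with little spread. It read 8.97 with AdGFP, 8.44 and 8.41 with AdmiR7a and 8.33 with AdmiR7b. The miR-7 arrays lay within 0.11 of each other and at least 0.52 below AdGFP. Rela fell by 0.57 ± 0.08 (95% interval -0.80 to -0.34; adjusted p = 0.0214), a 1.49-fold drop, and 9.81% of all genes had a lower difference. Leaving out each miR-7 array gave -0.60 to -0.54 and an adjusted p of 0.0698 to 0.0851, and no filter gave 0.0738.

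Psme3 gave opposite answers on its 2 readable probe sets, which the array annotation assigns to the same source transcript. Probe set 1418079_at, the brighter and therefore the one that stood for the gene, read 9.52 with AdGFP, 9.87 and 9.63 with AdmiR7a and 9.83 with AdmiR7b. All 3 miR-7 arrays lay slightly above AdGFP (0.26 ± 0.12, 95% interval -0.08 to 0.60, adjusted p = 0.192). Probe set 1418078_at read 6.05 with AdGFP, 3.99 and 3.71 with AdmiR7a and 4.0 with AdmiR7b. On the miR-7 arrays it lay just under the level of 4 used as filter, so it was tested only because of its AdGFP value. It passed the test (adjusted p = 0.0244 over all probe sets, 0.0618 with no filter). Its miR-7 values were low, though above the lowest value of the table, 2.17. The size of its drop, -2.16, may be limited by the background and is not read as a measured fold. The third, 1438509_at, sat at the lowest value throughout. Averaging all 3, with 1418078_at and the one at the lowest value included, turned the gene's sign, to -0.63 (adjusted p = 0.0198).

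Setdb1 was measured by 1 of its 3 probe sets, 1451833_a_at. It read 7.87 with AdGFP, 7.29 and 6.88 with AdmiR7a and 6.86 with AdmiR7b. The AdmiR7a arrays differed by 0.40 between themselves, and both lay below AdGFP. The difference was -0.86 ± 0.21 (95% interval -1.43 to -0.28; adjusted p = 0.0526), a 1.81-fold lower mean that missed the threshold. It passed with a filter at 6 (adjusted p = 0.0236), with the arrays normalized again (0.0244), with median centring (0.0304) and with a variance trend in limma (0.0496), while over all alternatives the adjusted p ranged from 0.0236 to 0.234. Averaging the 3 probe sets of Setdb1 gave -0.21 (adjusted p = 0.187). The other probe sets of Setdb1 stayed below 3.4 on every array.

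Egfr, the best known of these targets, was read by 3 of 7 probe sets, and none passed the test. The brightest, 1424932_at, which stood for the gene, read 7.70 with AdGFP, 6.95 and 7.32 with AdmiR7a and 7.47 with AdmiR7b (-0.45 ± 0.23, 95% interval -1.08 to 0.19, adjusted p = 0.219). Without 1 miR-7 array in turn it was -0.56 to -0.30, and averaging all 7 probe sets gave -0.20. Probe set 1435888_at stood at 7.56, then 6.52 and 6.41 and then 6.89, the widest gap of the 3 (-0.95 ± 0.23, adjusted p = 0.0725), and passed when the arrays were normalized again (adjusted p = 0.0478), with centring (0.0449) and with a filter at 6 (0.0345), in a range of 0.0345 to 0.290 over all alternatives. On both of these the vectors lay below AdGFP, AdmiR7b closest to it. The third, 1460420_a_at, stood at 6.16, then 5.99 and 6.02 and then 6.32, so that AdmiR7b was above AdGFP and AdmiR7a below it (-0.04 ± 0.17, adjusted p = 0.872). In the fit over probe sets the 95% interval was -1.14 to 0.25 for 1424932_at, -1.62 to -0.29 for 1435888_at and -0.54 to 0.45 for 1460420_a_at, so a missed threshold does not show that Egfr kept its level.

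Klf4 did not pass on either of its probe sets. Probe set 1417394_at read 9.04 with AdGFP, 8.78 and 8.84 with AdmiR7a and 9.14 with AdmiR7b (-0.12 ± 0.17, 95% interval -0.59 to 0.35, adjusted p = 0.622). Here AdGFP lay between the vectors. Without AdmiR7b the difference was -0.23, and without 1 AdmiR7a array it was -0.055 or -0.082. Averaging both probe sets gave -0.20. Probe set 1417395_at read 6.37, then 6.02, 6.19 and 6.05, with all 3 below AdGFP (-0.28 ± 0.10, adjusted p = 0.135).

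**Figure D2:**
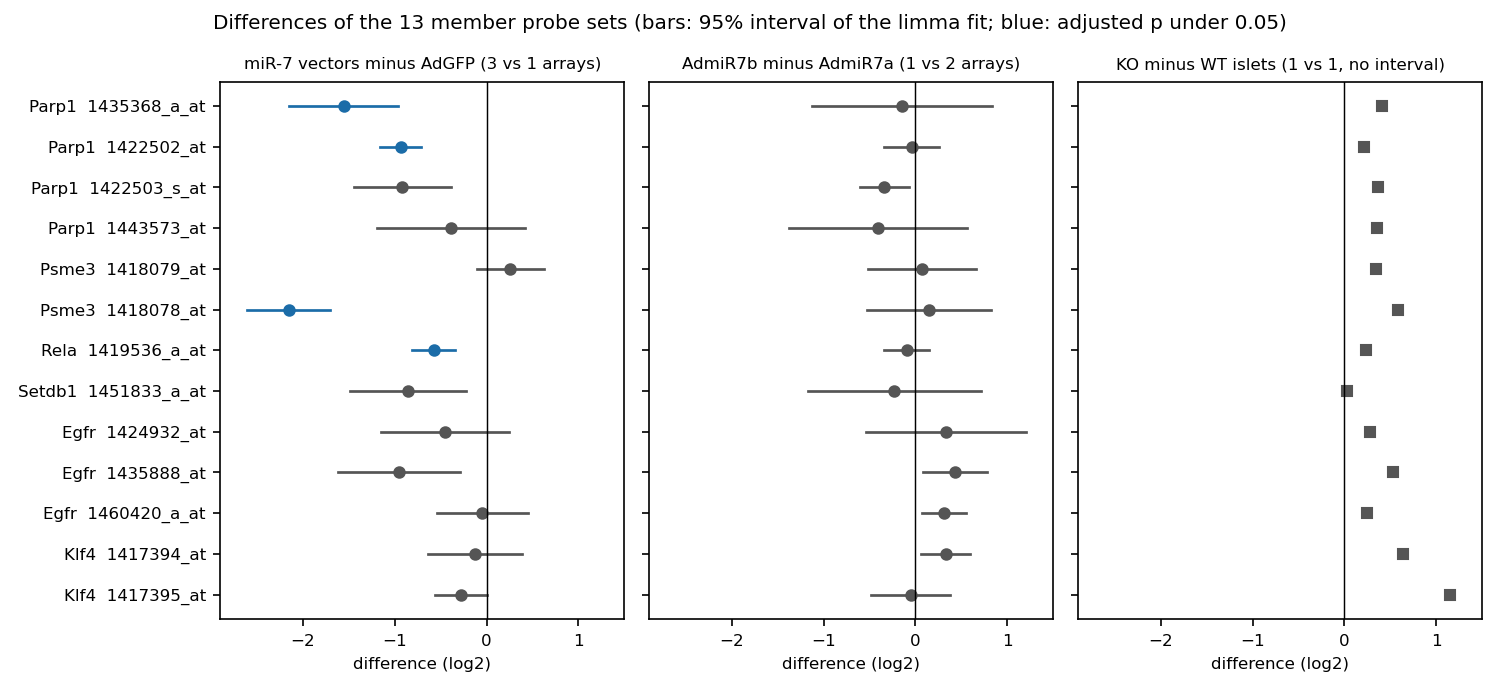
Log2 differences (horizontal axes) of the 13 member probe sets (rows): the 3 miR-7 arrays minus the 1 AdGFP array on the left, AdmiR7b minus AdmiR7a in the middle and KO minus WT islets on the right; bars are 95% intervals of the limma fits, blue marks an adjusted p under 0.05, and the islet squares have no interval because each group is 1 array. On the left the 4 blue rows are 2 of Parp1 (-1.56 and -0.94), 1 of Psme3 (-2.16) and Rela (-0.57). The size of the Psme3 row may be limited by the background. On the right every square is above 0.

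The AdmiR7a arrays alone, the only vector with a replicate, gave no calls among the 6 genes, of which 2 had an unadjusted p under 0.05. Differences from AdGFP were -1.51 for Parp1 (adjusted p = 0.0795), -0.78 for Setdb1 (0.144), -0.56 for Egfr (0.199), -0.54 for Rela (0.0698), -0.23 for Klf4 (0.153) and 0.24 for Psme3 (0.345). In that limma fit, with 1 residual degree of freedom, 0% of all genes passed, while 3811 of 10369 had an unadjusted p under 0.05. With AdmiR7b, on 1 array as AdGFP was, Parp1 was at -1.65, Setdb1 at -1.01, Rela at -0.64, Egfr at -0.22, Klf4 at 0.10 and Psme3 at 0.31. Parp1 and Setdb1 were the 2 of 6 genes lower by at least 1, where 4.26% of all genes were. The same limma fit, which takes its spread from the AdmiR7a pair alone, called 0 of the 6 genes (3 at an unadjusted p under 0.05; adjusted p 0.0687 to 0.557) and 0% of all genes, with 3915 at an unadjusted p under 0.05. Both sets of differences use the same AdGFP array.

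Between the vectors 0 of the 6 genes passed the limma test, and 1, Klf4, had an unadjusted p under 0.05. AdmiR7b minus AdmiR7a was 0.33 for Egfr (95% interval -0.43 to 1.10), 0.33 for Klf4 (0.07 to 0.58, adjusted p = 0.737), -0.15 for Parp1 (-1.0 to 0.70), -0.23 for Setdb1 (-1.05 to 0.59), -0.09 for Rela (-0.34 to 0.15) and 0.07 for Psme3 (-0.45 to 0.59). Limma called 0% of all genes here, with 608 at an unadjusted p under 0.05. All 3 Egfr probe sets were 0.31 to 0.43 higher with AdmiR7b than with AdmiR7a, each with an adjusted p of at least 0.683 over all probe sets. Of the 13 probe sets 4 had an unadjusted p under 0.05, as did 1416 of all 20234. The intervals of Parp1, Setdb1 and Egfr allow differences of about 1 (log2), so the vectors may differ on these genes by more than this design can show.

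Removing miR-7a2 from beta cells is the opposite manipulation, in islets. Each group is 1 array, so these differences have no replicate check and no p-value. All 6 genes were higher in KO than in WT islets, where 44.7% of all 10568 genes were, and so were all 13 probe sets, where 48.0% of all probe sets were. At a size of 0.58 it was 3 of 13 probe sets, against 8.23%. These were both probe sets of Klf4 and Psme3 1418078_at. The Psme3 one was only just past that size and dim, at 4.97 in KO and 4.39 in WT. The median of KO minus WT was 0.38 over the 6 genes and -0.03 over all genes. By size, 1 of 6 genes was higher by at least 0.58, against 4.11% of all genes, and 0 by at least 1, against 1.36%.

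Klf4, which did not pass the test in MIN6, was the member with the widest gap in islets. Probe set 1417394_at read 9.12 in KO and 8.47 in WT, 1.56-fold higher in KO. Probe set 1417395_at read 6.23 in KO and 5.07 in WT, 2.23-fold higher, and was the 1 of 13 probe sets past a difference of 1, where 3.42% of all probe sets were. On both, the KO value lay within the range of the MIN6 arrays and the WT value below all of them.

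Egfr was higher in KO on each of its readable probe sets: 7.91 against 7.38 on 1435888_at, 7.43 against 7.15 on 1424932_at and 6.08 against 5.83 on 1460420_a_at. Parp1 read 10.34 against 9.93 on its brightest probe set, and its 4 probe sets were 0.21 to 0.41 higher in KO. Both Psme3 probe sets were higher in KO, 9.25 against 8.90 on 1418079_at and 4.97 against 4.39 on 1418078_at, so those that disagreed in MIN6 pointed the same way here. Rela read 9.79 in KO and 9.56 in WT. Setdb1 read 7.45 in KO and 7.42 in WT.

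Several features of the islet samples moved alongside these differences, and their part in them was not tested. Of 7 beta-cell markers 3 were higher in KO, Nkx6-1 by 0.73, Slc2a2 by 0.34 and Pdx1 by 0.28, and Ucn3 stood lowest, at -0.43. Their summed level was 17.5 (log2) in KO and 17.4 in WT. Ins2 (15.8 in both) and Iapp (16.1 in both) weigh most in it, so it says little about the others. Of 5 immune markers 3 were higher in KO, between -0.37 and 0.51, and their summed level was 10.3 (log2) in KO and 10.2 in WT. Of 5 endothelial markers 2 were higher, from Pecam1 at -1.11 to 0.14 (sum 10.8 in KO and 11.0 in WT). Of 5 stellate and fibroblast markers 1 was higher (sum 9.48 in KO and 9.80 in WT), with Col1a1 at 2.18 in both. The ductal marker Krt19 read 4.45 in KO and 2.68 in WT, while Sox9 (2.23) and Cftr (2.17) lay near the lowest value in both. Control RNA added to the samples also differed, with the dap transcript at 11.3 in KO and 12.6 in WT.

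Lower with the miR-7 vectors and higher in KO at any size held for 5 of the 6 genes, all but Psme3, where it held for 23.5% of the 9781 genes measured in both systems. Among probe sets it held for 12 of 13, all but 1418079_at, against 26.3% of all. The MIN6 and islet comparisons share no array. The members were chosen with earlier results of these data known, so these counts do not stand as separate evidence. The count takes the direction alone, and most of these differences were small or did not pass the test.

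The levels of most members overlapped between MIN6 and islets. The MIN6 range takes AdGFP and the miR-7 arrays together, so it is wider where these differ, and overlap is not likeness of the systems. On 2 of 13 probe sets, Rela and Parp1 1443573_at, both islet samples lay above all MIN6 arrays, an order held by 34.8% of all probe sets. On 1 of 13, Psme3 1418079_at, they lay below, as on 37.8% of all. The order of Parp1 on its brightest probe set was AdGFP, KO, WT, AdmiR7a and AdmiR7b, from 10.49 down to 8.84. AdmiR7b there lay within the AdmiR7a pair, and AdGFP and KO differed by less than that pair did. For Rela the order was KO, WT, AdGFP, AdmiR7a and AdmiR7b, from 9.79 down to 8.33. For Setdb1 it was AdGFP, KO, WT, AdmiR7a and AdmiR7b, and KO and WT differed by 0.03. For Egfr on 1435888_at it was KO, AdGFP, WT, AdmiR7b and AdmiR7a, from 7.91 down to a mean of 6.46. Klf4 on 1417394_at ran from AdmiR7b (9.14), KO and AdGFP, all within 0.10 of each other, to AdmiR7a (8.81) and WT (8.47).

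Parp1 and Setdb1 spanned at least 1 (log2) within MIN6, and the genes most like them were sought by the Euclidean distance between log2 values centred on the mean of their own system, over the 6 arrays and 9781 genes. Nearest to Parp1 were Thap12 (distance 0.16; 10.75 with AdGFP, 9.08 and 9.31 with AdmiR7a, 9.92 in KO and 9.59 in WT), Samd10 (0.18) and Slitrk6 (0.20). Nearest genes were chosen by their values on these same arrays, so a difference like that of the member follows from the choice. In the pooled fit Thap12 fell by 1.62 (adjusted p = 0.0132), Samd10 fell by 1.65 (0.0175) and Slitrk6 fell by 1.62 (0.0139). Nearest to Setdb1 were Akr1c19 (distance 0.07), Efr3b (0.08) and Zfand4 (0.09), of which Akr1c19 fell by 0.84 (adjusted p = 0.0416).

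The genes that work with each member were followed in 8 lists, beside 1 of other miR-7 targets. In these 9 lists, 10 of 95 distinct genes tested fell and 15 rose, 10.5% and 15.8%, close to the shares among all genes. In islets 0 of 100 measured list genes differed by at least 1, where 1.36% of all genes were higher and 1.29% lower by that much.

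Around Parp1, 0 of 11 genes of the PARP family and of single-strand break repair passed the pooled limma test (1 lower and 4 higher at an unadjusted p under 0.05), with a median of 0.24. The lowest of them stood at -0.47, against -1.56 for Parp1. Around Setdb1, 0 of 8 genes of histone H3 lysine 9 methylation fell (0 at an unadjusted p under 0.05) and 1 rose, the methyltransferase gene Suv39h2 (by 0.48, adjusted p = 0.0226), with a median of 0.19. Around Rela, 0 of 7 NF-kappaB genes fell (0 at an unadjusted p under 0.05) and 2 rose: Nfkbia, whose product holds NF-kappaB in the cytoplasm, by 0.58 ± 0.08 (adjusted p = 0.0218), and the related inhibitor gene Nfkbie by 0.37. The median of this list was 0.21 in MIN6. Parp1, Rela and Setdb1, which itself missed the threshold, each had a lower difference than every tested gene of the list around them. Egfr, Klf4 and Psme3 did not. The members and lists were chosen with earlier results of these data known, so this order does not stand as separate evidence.

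Around Egfr, 1 of 10 ErbB pathway genes fell and 3 rose (median 0.32). The ubiquitin ligase gene Cbl, which serves the degradation of activated EGFR, fell by 1.28 ± 0.13 (adjusted p = 0.0137). Map2k1, the kinase MEK1, rose by 0.74, Errfi1, an inhibitor of EGFR, by 0.64 and the adaptor gene Grb2 by 0.49. Around Klf4, 1 of 10 Kruppel-like factors fell and 4 rose (median 0.03). Klf11 rose by 1.97 ± 0.10 (adjusted p = 0.010), from 5.53 with AdGFP to between 7.42 and 7.59. Klf6 rose by 1.17, Klf10 by 0.79 and Klf3 by 0.69, whereas Klf12, named here after its value was seen, fell by 0.62.

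Around Psme3, 1 of 17 proteasome genes fell and 1 rose (median 0.08): Psme4, another proteasome activator, fell by 0.37, and the immunoproteasome subunit gene Psmb10 rose by 0.79. For Pak1 and Ptk2, which had no probe set carrying their symbol alone, the genes around them were measured. Of 13 PAK, RAC and LIM kinase genes 1 fell and 4 rose (median 0.10). Pak3 rose by 0.85, the cofilin kinase genes Limk1 and Limk2 by 0.74 and 0.73, and Pak7, named after its value was seen, by 0.69, while the exchange factor gene Arhgef7, a partner of PAK kinases, fell by 0.76. Of 10 focal adhesion genes 2 fell and 0 rose (median 0.03): Vcl, the actin linker vinculin, fell by 1.01 ± 0.07 (adjusted p = 0.0119), and the adaptor gene Crk fell by 0.84.

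Other targets that miR-7 is known for in tumour cells included more genes that fell. Of 9 tested, 4 fell and 0 rose (median -0.30): the receptor gene Igf1r fell by 1.34, Mtor fell by 0.81, and of the insulin receptor substrate genes Irs2 fell by 0.75 and Irs1 fell by 0.67. The list had been seen to be low in these data before, so it does not stand as separate evidence.

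**Figure D3:**
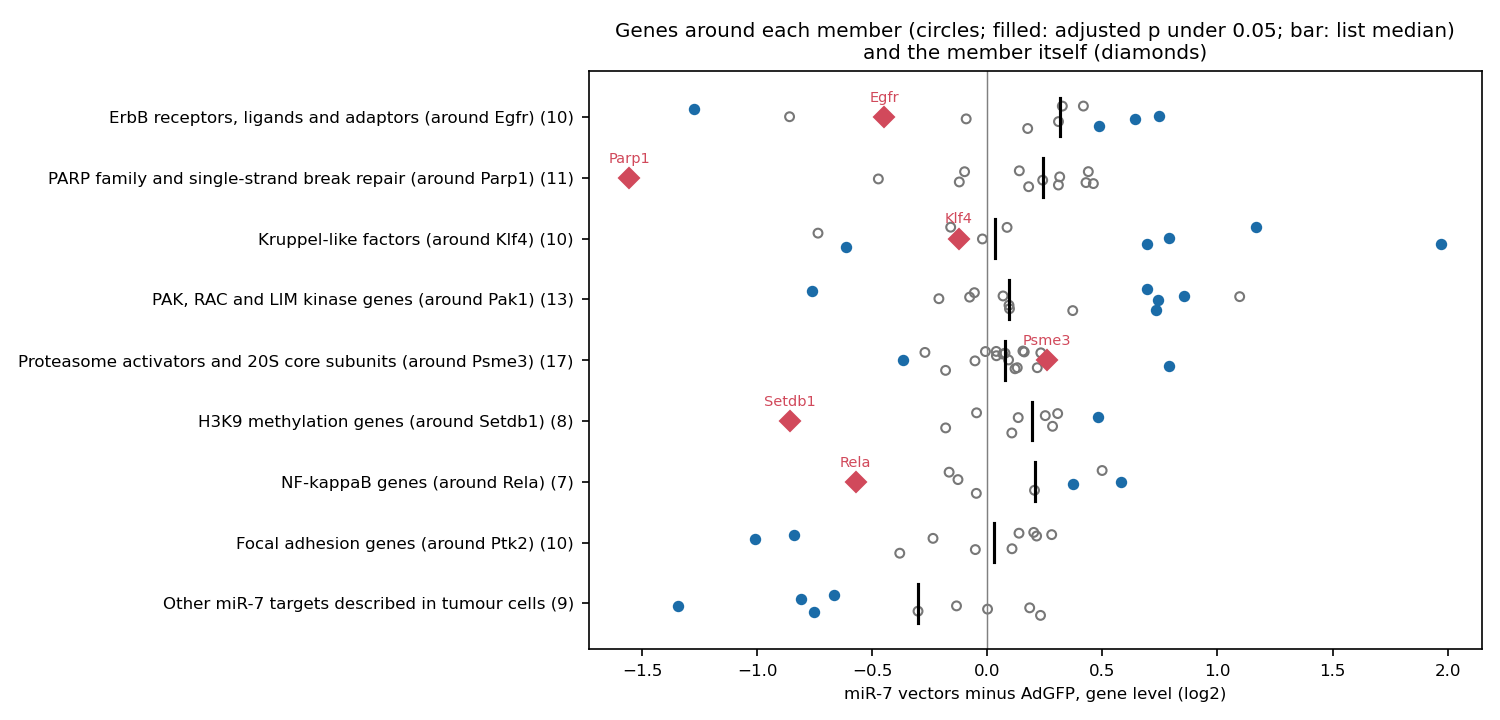
Pooled miR-7 minus AdGFP difference (log2, horizontal axis) of the tested genes in 9 lists (rows, with the number tested in brackets); circles are genes, filled where the adjusted p was under 0.05, the black bar is the list median and diamonds are the member genes placed on the row of the list around them. Parp1 (-1.56), Setdb1 (-0.86) and Rela (-0.57) lie left of all circles on their rows. Egfr (-0.45), Klf4 (-0.12) and Psme3 (0.26) lie among the circles on theirs.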

How the data were processed

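Values were the deposited log2 probe set intensities of 6 arrays, which the authors made with GCRMA and the affy package, per the submitters' processing notes, without versions. GCRMA corrects background from probe sequence and compresses low values to a floor. Whether all arrays were normalized together is not given in the sources used here, and scanner files were not used here. Of 45101 probe sets, 34958 carried 1 gene symbol, 932 several and 9211 none; symbols were updated through Entrez identifiers of RefSeq (GRCm38.p6). Each gene took its probe set with the highest mean in the system, and genes or probe sets with a mean below 4 were left out. Limma 3.58.1 (R 4.3.3) was fitted over all genes and, separately, all probe sets: 3 miR-7 arrays against AdGFP (2 residual degrees of freedom), and a mean per vector (1). AdmiR7b and AdGFP have 1 array each, so their difference was counted by size, and its limma test rests on the spread of the AdmiR7a pair. KO and WT, with 1 array each, were not tested. The fits were tested on simulated data in which all arrays of a gene had the same spread. The simulation therefore could not check the spread of the single AdGFP array. Whether the AdmiR7a duplicates came from separate cultures is not stated, so p-values measure the spread between these arrays, which may be technical. The precision is limited by the number of arrays. Named genes were all members, up to 4 called genes per list by size, and the 3 genes nearest to members spanning at least 1 in MIN6. The members and lists were chosen with earlier results of these data known.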

Additional observations from a re-analysis of the deposited data

How the results depend on the processing

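Of the 6 genes, 2 fell in the pooled fit. The count was 3 with averaged probe sets, a filter at 6, normalization again, median centring or a variance trend. The third gene was Psme3 with averaged probe sets and Setdb1 with each of the rest. The count was 0 with no filter, and 0 without any 1 of the miR-7 arrays. Of the 13 probe sets 4 fell; 1 fell with no filter, 7 with quantile normalization again and 7 with median centring, and 0 without any 1 of the miR-7 arrays. Over the whole table the genes called went from 2715 to 981 with no filter and to 0 without any 1 miR-7 array, and no filter adds probe sets at the floor to the fit. Over all probe sets they went from 3281 to 2355 with no filter. With AdmiR7a alone 0 of 6 fell, but 2 fell with averaged probe sets, a filter at 6, normalization again or median centring, and the genes called over the whole table went from 0 to 967, 1737, 2363 and 2325, and to 350 with no filter. Against AdGFP, AdmiR7b had 2 genes lower by 1, and 1 with averaged probe sets or normalization again; averaging put Psme3 at -0.58, Setdb1 at -0.13 and Klf4 at -0.11. Its limma fit called 0 of the 6 genes, but 2 with averaged probe sets or a filter at 6 and 3 with normalization again or median centring, and for all genes the calls went from 0 to 1062, 1923, 2505 and 2473, and 844 with no filter. In the gene lists 10 fell and 15 rose, 2 and 4 with no filter, and 0 of each without any 1 of the miR-7 arrays. Averaging probe sets reversed Psme3 to -0.63 in the pooled fit and to -0.66 with AdmiR7a, and Setdb1 between the vectors to 0.13. Without 1 miR-7 array in turn Egfr 1460420_a_at lay between -0.15 and 0.014, above 0 (0.014 and 0.0023) without AdmiR7a replicate 1 or 2. The cause of these shifts was not tested. Without 1 AdmiR7a array the fit on AdmiR7a has no residual degrees of freedom, so only differences were computed. All 6 genes were higher in KO under every alternative run in islets. No paired analysis was possible because only AdmiR7a has replicate numbers. Values near 4 and below are limited by the background.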
